A study of Mus musculus with 6 samples.

Results

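The transcripts of 10 genes of the insulin and insulin-like growth factor (IGF) pathway were examined in brown adipose tissue (BAT) of mice without Letmd1, a mitochondrial protein. The genes were Insr, Irs1, Irs2, Igf1, Igf1r, Igfbp3, Igfbp4, Igfbp5, Pik3r1 and Akt2. They were picked for their place in the pathway and matched by gene symbol, and all 10 were found among the 23282 rows of the count data. Interscapular BAT came from 3 wild-type and 3 Letmd1 KO male mice on the C57BL/6N background, all 5 weeks of age. The KO mice were homozygous for a knockout-first allele, in which a lacZ and neomycin cassette sits in an intron of Letmd1. The allele came from 1 embryonic stem cell clone and acts in every tissue, so the KO mice lacked Letmd1 outside BAT as well.

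Insulin binds the insulin receptor (Insr), and IGF1, made by the liver and locally by many other cells, binds the related IGF1 receptor (Igf1r). Both receptors phosphorylate the adaptors IRS1 and IRS2, which recruit PI3-kinase through its regulatory subunit p85α (Pik3r1). The lipid made by PI3-kinase activates the Akt kinases, of which Akt2 is the main insulin-responsive form in fat. IGF binding proteins hold IGF1 outside the cell and set how much of it reaches the receptor. Brown fat is among the most insulin-responsive tissues, taking up glucose and making lipid when insulin is high.

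All 10 genes are protein-coding, and their positions on GRCm38 were taken from GENCODE vM21. Insr lies at chr8:3122061-3279617 and Irs2 at chr8:10984681-11008458, both on the minus strand. Irs1 at chr1:82233101-82291416 and Igfbp5 at chr1:72857932-72874884 are also on the minus strand, as are Pik3r1 at chr13:101680563-101768217 and Igfbp3 at chr11:7206086-7213923. Igf1 at chr10:87858265-87937042, Igf1r at chr7:67952827-68233668, Akt2 at chr7:27591552-27640826 and Igfbp4 at chr11:99041244-99054392 are on the plus strand. The exons of Irs1 share 2822 bases with those of Gm9747 on the opposite strand, including 489 of the last 500 bases, where 3′ reads fall. Whether reads were counted by strand was not given in the sources used here, so reads of Irs1 and Gm9747 cannot be told apart. Gm9747 has no row of that name in the count data. Irs2 shares 162 exon bases with 9530052E02Rik on the opposite strand, 0 of them in its last 500 bases. That gene had 1 to 7 counts per mouse.

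RefSeq promoters on GRCm38.p6, the 250 bases before a start site, were found for 9 of the 10 genes, with 13 promoters in all. Insr had none in the table. Those of Irs1, Irs2 and Igfbp4 are shown because the adaptor pair holds the largest falls and Igfbp4 the largest rise among the 10 genes. Each is written 5′ to 3′ on the strand of its gene, at chr1:82291440-82291689 on the minus strand for Irs1, chr8:11008930-11009179 on the minus strand for Irs2 and chr11:99040994-99041243 on the plus strand for Igfbp4. Capitals mark the E-box CACGTG in Irs1 and Irs2 and the TATA box TATAAA in Igfbp4.
Irs1: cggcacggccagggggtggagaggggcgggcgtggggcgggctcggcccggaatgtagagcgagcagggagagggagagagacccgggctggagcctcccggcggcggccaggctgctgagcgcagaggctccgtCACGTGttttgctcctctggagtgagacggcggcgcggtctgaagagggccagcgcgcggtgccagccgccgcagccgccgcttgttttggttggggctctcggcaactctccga
Irs2: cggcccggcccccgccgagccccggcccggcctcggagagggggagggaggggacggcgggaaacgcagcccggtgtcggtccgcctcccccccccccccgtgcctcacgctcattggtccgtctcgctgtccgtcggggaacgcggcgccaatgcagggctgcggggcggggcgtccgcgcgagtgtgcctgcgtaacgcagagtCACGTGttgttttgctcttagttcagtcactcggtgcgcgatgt
Igfbp4: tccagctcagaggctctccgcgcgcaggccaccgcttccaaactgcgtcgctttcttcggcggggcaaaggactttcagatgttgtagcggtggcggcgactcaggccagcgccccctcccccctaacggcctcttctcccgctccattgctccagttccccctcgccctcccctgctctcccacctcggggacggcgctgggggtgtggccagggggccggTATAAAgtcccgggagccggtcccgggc
The longest run that the Irs1 and Irs2 promoters share is gtCACGTGtt, 10 bases long. It begins 117 bases before the start of Irs1 and 46 bases before that of Irs2, and 23 of 32851 mouse promoters in the table hold it (0.07%). The run was picked from these sequences before it was counted. The share expected by chance for a run this long was not computed. The E-box, searched on both strands, was chosen after these sequences were seen and is present in 6.02% of all promoters. TATAAA, found 28 bases before the start of Igfbp4, is present in 12.4% of all promoters, at any place in the 250 bases and on either strand. It also matched 1 promoter of Pik3r1, on the other strand and 117 bases before the start. All motifs were searched on both strands. The FOXO motif TGTTTAC was found in 0 of the 13 promoters, against 3.17% of all promoters, and the C/EBP-ATF motif TGATGNAA in 1 promoter of Akt2, against 3.45%. These letter matches are descriptions and say nothing about binding.

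QuantSeq libraries, made from the 3′ ends of mRNAs, held between 6669577 and 14574273 counts for each mouse. Values are given as CPM, the counts relative to a common library size, after TMM scaling, a correction for library composition. The limit that a count of 0 allows, 3 counts, was 0.176 to 0.397 CPM and covers counting error only. The Letmd1 counts were 5658, 6490 and 5266 in wild type, against 0, 0 and 1 in KO mice. Wild-type mouse 3 and KO mouse 2 stood apart: 207 and 202 of 10328 genes lay more than 2-fold off both other mice of the genotype, against 28 to 68 in the other mice. The tissue also differed in its cell type markers. Of 8 brown adipocyte markers 7 fell (summed level 40550 to 45930 CPM in wild type and 11980 to 16320 in KO), while 12 of 12 macrophage markers rose (194 to 262 and 1510 to 3665 CPM) and 9 of 11 fibroblast and progenitor markers rose (2210 to 2918 and 5998 to 10280 CPM). Skeletal muscle markers summed to 9.38, 403 and 7.04 CPM in wild-type mice 1 to 3 and to 431, 309 and 1237 in the KO mice, with 3 of 15 past the threshold. By the test described below, 22.3% of all rows tested fell and 23.7% rose. The marker sums are led by the genes with the most reads, such as Fabp4 (mean 28020 CPM in wild type) and Col1a2 (mean 2694 CPM in KO). In bulk tissue, fewer cells of a type and less RNA per cell cannot be told apart.

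The 10 genes did not all move the same way in mice without Letmd1. The insulin receptor, both IRS adaptors and Akt2 were lower, whereas Igf1, its receptor and the binding proteins Igfbp4 and Igfbp5 were higher. The test was the quasi-likelihood test of edgeR, with p-values adjusted by the Benjamini-Hochberg method over 12995 rows and called under 0.05. By this test 4 of the 10 genes were lower in KO mice and 4 were higher. The calls of Irs1 and Irs2 were lost without wild-type mouse 3. Scaled by library size alone, Akt2 was the only gene of the 10 called lower. Over all rows tested, 46.0% passed in either direction, 22.3% lower and 23.7% higher, so a call in this tissue was common. The groups did not overlap for 7 of the 10 genes, 3 with KO lower and 4 with KO higher, against 57.3% of all rows, 27.2% with KO lower and 30.1% with KO higher. The median log2 fold change, KO against wild type, was -0.28 for the 10 genes and 0.03 for all rows.

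**Figure D1:**
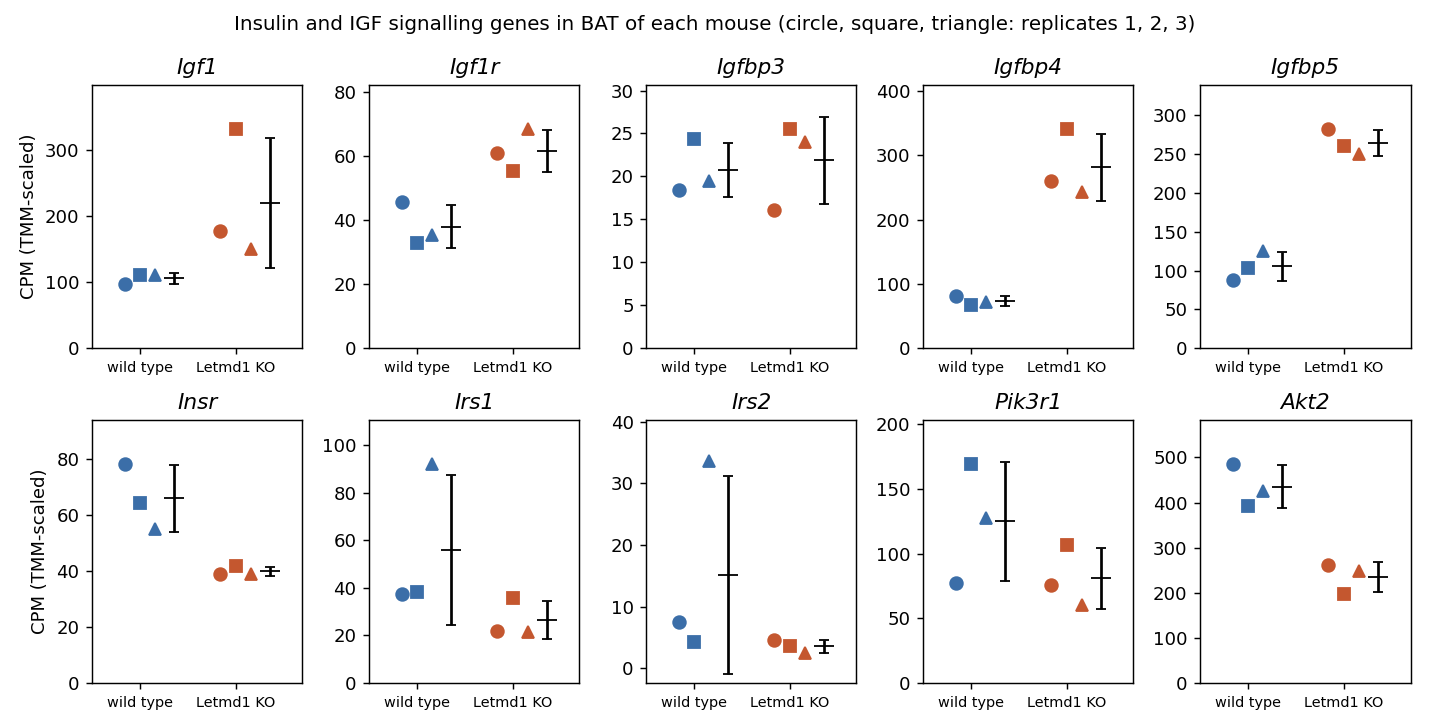
TMM-scaled CPM of the 10 genes in each mouse (vertical axis), wild type beside Letmd1 KO, with the group mean and SD (n = 3). Igf1, Igf1r, Igfbp4 and Igfbp5 lay higher in every KO mouse, Insr, Irs1 and Akt2 lower, and Irs2, Igfbp3 and Pik3r1 overlapped, with wild-type mouse 3 (triangle) far above the others for Irs1 and Irs2.

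The ligand gene Igf1 was expressed at 96.5, 110 and 111 CPM in wild-type mice and at 177, 332 and 150.03 CPM in KO mice. Every KO mouse was above every wild-type mouse, and KO mouse 2 was far above the other KO mice. The mean rose 2.07-fold, from 106 ± 8.10 to 220 ± 98.2 CPM (SD, n = 3), with a log2 fold change of 1.05 ± 0.26 (SE) and an edgeR adjusted p of 0.00916. Without KO mouse 2 the log2 fold change was 0.62 and the call was kept. KO mouse 2 also had the highest summed macrophage (3665 CPM) and fibroblast markers (10280 CPM), and the part of these cells in the rise of Igf1 was not tested. In that macrophage sum Gpnmb alone held 1014 CPM, against 63.1 and 41.0 CPM in KO mice 1 and 3. Mrc1 differed less, at 136 CPM against 121 and 115 CPM. With the level of muscle markers as a covariate, the log2 fold change of Igf1 was 1.18 and the adjusted p 0.0508.

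Igf1r, the receptor for IGF1, was at 45.5, 32.8 and 35.3 CPM in wild-type mice and at 60.8, 55.2 and 68.4 CPM in KO mice. The groups were separate, and the KO mice differed little among themselves. It rose 1.62-fold, from 37.9 ± 6.73 to 61.5 ± 6.63 CPM, with a log2 fold change of 0.70 (95% interval 0.35 to 1.05, edgeR adjusted p = 0.00503). Ligand and receptor of the IGF branch were thus both higher in the KO mice. Without wild-type mouse 2 and KO mouse 3 together, the mice with the most muscle markers in their genotype, the log2 fold change of Igf1r was 0.51 and the adjusted p 0.0907.

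Among the binding proteins, Igfbp4 showed the largest rise of the 10 genes. IGFBP4 holds IGF1 away from its receptor until it is cleaved by the protease PAPP-A. Igfbp4 was at 81.6, 66.4 and 71.5 CPM in wild-type mice and at 259.56, 341 and 243 CPM in KO mice. The lowest KO mouse was well above the highest wild-type mouse. It rose 3.85-fold, from 73.1 ± 7.76 to 281 ± 52.5 CPM, with a log2 fold change of 1.94 ± 0.15 (SE) and an edgeR adjusted p of 1.91e-05.

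Igfbp5, a binding protein that attaches to extracellular matrix, was at 87.5, 103 and 125 CPM in wild-type mice and at 283, 260.05 and 249.95 CPM in KO mice. These groups were also far apart, and the KO mice lay within a narrow range. It rose 2.51-fold, from 105 ± 19.0 to 264 ± 16.7 CPM, with a log2 fold change of 1.33 (95% interval 1.01 to 1.64, edgeR adjusted p = 8.41e-05). The calls of Igfbp4 and Igfbp5 were kept under all 15 alternatives, with log2 fold changes between 1.78 and 2.36 and between 1.204 and 1.75. Fibroblast and progenitor markers rose in the same mice, from 2210 to 2918 CPM in sum to 5998 to 10280 CPM, and their part in the rise of both genes was not tested.

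Igfbp3, the main carrier of IGF1 in blood, was different. Its level was 18.4, 24.4 and 19.4 CPM in wild-type mice and 16.04, 25.5 and 24.0 CPM in KO mice, and the groups overlapped throughout. The means were 20.7 ± 3.19 and 21.9 ± 5.10 CPM, the log2 fold change was 0.08 (95% interval -0.38 to 0.53) and the edgeR adjusted p was 0.786. The sum of Igfbp3, Igfbp4 and Igfbp5 was 188, 194 and 216 CPM in wild-type mice and 558, 627 and 517 CPM in KO mice. All KO mice therefore had more binding protein transcript than any wild-type mouse.

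**Figure D2:**
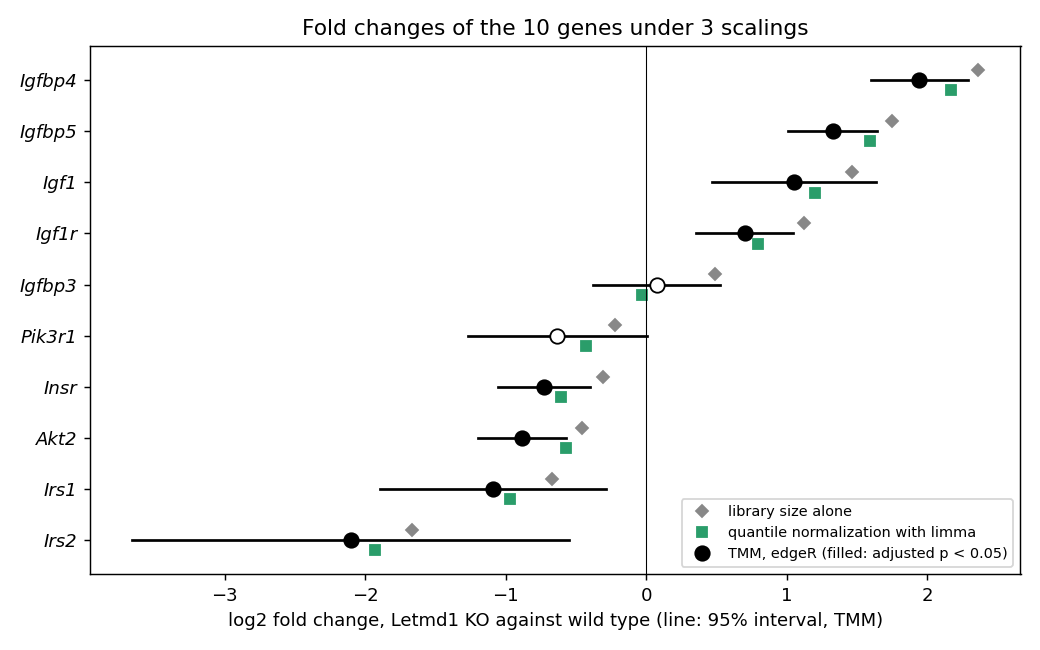
Log2 fold change of each gene, Letmd1 KO against wild type, with TMM scaling and edgeR (circles, filled where the adjusted p is under 0.05; lines, 95% intervals), library size alone (diamonds) and quantile normalization with limma (squares). Igfbp4 at 1.94 and Irs2 at -2.10 mark the ends under TMM, the interval of Irs2 is the widest, and Igfbp3 lies at 0.08 under TMM and at -0.03 under quantile normalization.

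On the insulin side, Insr was at 78.3, 64.4 and 54.8 CPM in wild-type mice and at 38.9, 41.7 and 38.9 CPM in KO mice. All KO mice were below all wild-type mice, in a narrow range. The mean fell from 65.8 ± 11.8 to 39.8 ± 1.62 CPM, 1.65-fold higher in wild type, with a log2 fold change of -0.73 ± 0.14 (SE) and an edgeR adjusted p of 0.00301. Scaled by library size alone, which moved the median log2 fold change of all rows from 0.03 to 0.45, Insr was at -0.31 and did not pass (adjusted p = 0.0997). Under that scaling 1 of the 10 genes was lower, Akt2 at -0.46, and 4 were higher, and of all calls 81.2% were higher, against 51.6% with TMM.

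Irs1, the adaptor that links both receptors to PI3-kinase, was at 37.4, 38.1 and 92.2 CPM in wild-type mice and at 22.0, 35.6 and 21.5 CPM in KO mice. Wild-type mouse 3 stood far above the rest, and the lowest wild-type mouse was just above the highest KO mouse. The log2 fold change was -1.09 (95% interval -1.89 to -0.29, edgeR adjusted p = 0.0318), with means of 55.9 ± 31.4 and 26.3 ± 8.02 CPM. Without wild-type mouse 3 it was -0.54 and did not pass (adjusted p = 0.0715). The call was also lost without KO mouse 1 (-0.98, adjusted p = 0.112), without KO mouse 3 (-0.96, adjusted p = 0.106), and without wild-type mouse 2 and KO mouse 3 together (-1.18, adjusted p = 0.0678). It was lost by library size alone (-0.67, adjusted p = 0.123) and with muscle markers as a covariate (-0.42, adjusted p = 0.523).

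Irs2, the second main adaptor, had few reads, with 70, 40 and 258 counts in wild-type mice and 42, 27 and 42 in KO mice. This was 7.55, 4.24 and 33.6 CPM in wild-type mice and 4.62, 3.57 and 2.47 CPM in KO mice. Wild-type mouse 3 again stood alone, and the groups overlapped. The log2 fold change was -2.10 (95% interval -3.66 to -0.55, edgeR adjusted p = 0.0325), and without wild-type mouse 3 it was -0.76 and did not pass (adjusted p = 0.146). The call was also lost without KO mouse 1 (-2.35, adjusted p = 0.0685), KO mouse 2 (-2.12, adjusted p = 0.0665) or KO mouse 3 (-1.86, adjusted p = 0.109). By library size alone it was -1.67 (adjusted p = 0.0588), with the replicate number as a block -1.67 (adjusted p = 0.0703), and with muscle markers as a covariate -0.09 (adjusted p = 0.943). Wild-type mice 1 and 3 had almost no muscle markers, and only wild-type mouse 2 lay within the range of the KO mice.

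Irs3, an adaptor of adipocytes in rodents, had the same outlying mouse, with 9.38, 13.8 and 32.6 CPM in wild-type mice and 3.63, 5.56 and 4.59 CPM in KO mice. The groups did not overlap, and Irs3 fell, with a log2 fold change of -2.01 and an edgeR adjusted p of 0.00469. Against the nearer of the other wild-type mice, wild-type mouse 3 was higher by 1.27 (log2) for Irs1, 2.13 for Irs2 and 1.23 for Irs3. The FOXO factor gene Foxo1 was lower in that mouse by 1.19, at 549, 456 and 199 CPM in wild-type mice 1 to 3 and 119, 119 and 137 CPM in KO mice.

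**Figure D3:**
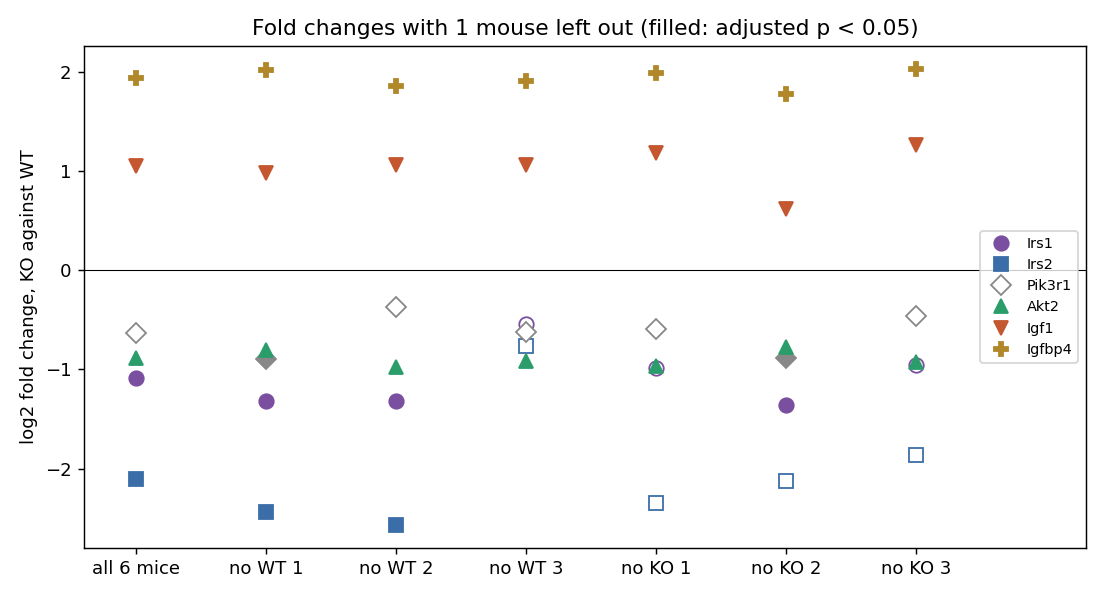
Log2 fold change (vertical axis, Letmd1 KO against wild type) of 6 genes with all mice and with each mouse left out in turn, filled where the edgeR adjusted p is under 0.05. Leaving out wild-type mouse 3 brings Irs2 from -2.10 to -0.76 and Irs1 from -1.09 to -0.54, leaving out KO mouse 2 brings Igf1 from 1.05 to 0.62, and Akt2 and Igfbp4 stay filled throughout.

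Pik3r1, the regulatory subunit that binds the IRS adaptors, was at 77.1, 169.63 and 128 CPM in wild-type mice and at 75.6, 107 and 60.1 CPM in KO mice. The wild-type mice were widely spread and the groups overlapped. The means were 125 ± 46.3 and 80.8 ± 23.7 CPM, and the log2 fold change was -0.63 (95% interval -1.27 to 0.0039, edgeR adjusted p = 0.0959). It passed without wild-type mouse 1 (-0.89, adjusted p = 0.0172), without KO mouse 2 (-0.88, adjusted p = 0.0353), with the replicate number as a block (-0.60, adjusted p = 0.0358) and with DESeq2 (-0.64, adjusted p = 0.0366).

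Akt2, the kinase that carries the insulin signal to glucose uptake, had the highest mean CPM of the 10 genes, at 486, 392 and 426 CPM in wild-type mice and 261, 198 and 247 CPM in KO mice. Every KO mouse was well below every wild-type mouse. The mean fell from 435 ± 47.6 to 235.54 ± 33.5 CPM, 1.85-fold higher in wild type, with a log2 fold change of -0.88 (95% interval -1.20 to -0.57, edgeR adjusted p = 0.000801). The call was kept under all 15 alternatives, with log2 fold changes between -1.003 and -0.46. As with Insr, the fall came in mice whose adipocyte markers summed to 11980 to 16320 CPM, against 40550 to 45930 in wild type, and the part of that difference was not tested. Akt1, the broadly expressed isoform, was at 167 ± 24.0 CPM in wild type and 178 ± 17.7 CPM in KO, with a log2 fold change of 0.09 and an edgeR adjusted p of 0.593. By library size alone Akt1 passed as higher (0.52, adjusted p = 0.0105).

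Ratios between genes of the same mouse do not depend on the scaling of libraries. Because QuantSeq yields reads from the 3′ end only, counts were not divided by length. Of the summed counts of Insr and Igf1r, Insr made up 63.2, 66.3 and 60.8% in wild-type mice and 39.0, 43.0 and 36.2% in KO mice. The receptor with more counts was thus Insr in every wild-type mouse and Igf1r in every KO mouse. The log2 ratio of Igf1r to Insr was -0.80 ± 0.17 in wild type and 0.62 ± 0.21 in KO, a difference of 1.42. The two-sided exact permutation p was 0.1, the smallest that 3 mice against 3 allow, and 0.233 after adjustment over the 7 ratios compared.

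Akt2 made up 71.6, 70.7 and 74.6% of the summed counts of Akt1 and Akt2 in wild-type mice, and 57.8, 55.6 and 57.1% in KO mice. The log2 ratio of Akt2 to Akt1 was 1.39 ± 0.15 and 0.40 ± 0.07, a difference of -0.99 (exact permutation p = 0.1, adjusted p = 0.233). Igfbp4 went from 17.8, 15.02 and 14.9% to 29.1, 32.0 and 29.1% of the counts of Igfbp3 to Igfbp7, and Igfbp7 from 55.3 ± 1.89 to 37.5 ± 1.64%. The log2 ratio of Igfbp3 to Igfbp4 differed by -1.88 (exact permutation p = 0.1, adjusted p = 0.233). For all of these the groups did not overlap.

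The other 4 ratios overlapped between the genotypes. The log2 ratio of Igf1 to the sum of Igfbp3, Igfbp4 and Igfbp5 was -0.91 ± 0.09 in wild type and -1.45 ± 0.47 in KO. It was lower in KO mice 1 and 3 (-1.66 and -1.79), while KO mouse 2, at -0.92, lay within the range of wild type. Irs2 to Irs1 differed by -0.58, Pik3r1 to its catalytic partners Pik3ca and Pik3cb by -0.47, and Igfbp5 to Igfbp4 by -0.59. Their exact permutation p-values, with that of Igf1 to the binding proteins, were 0.2 to 0.5, and the adjusted values 0.35 to 0.5.

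**Figure D4:**
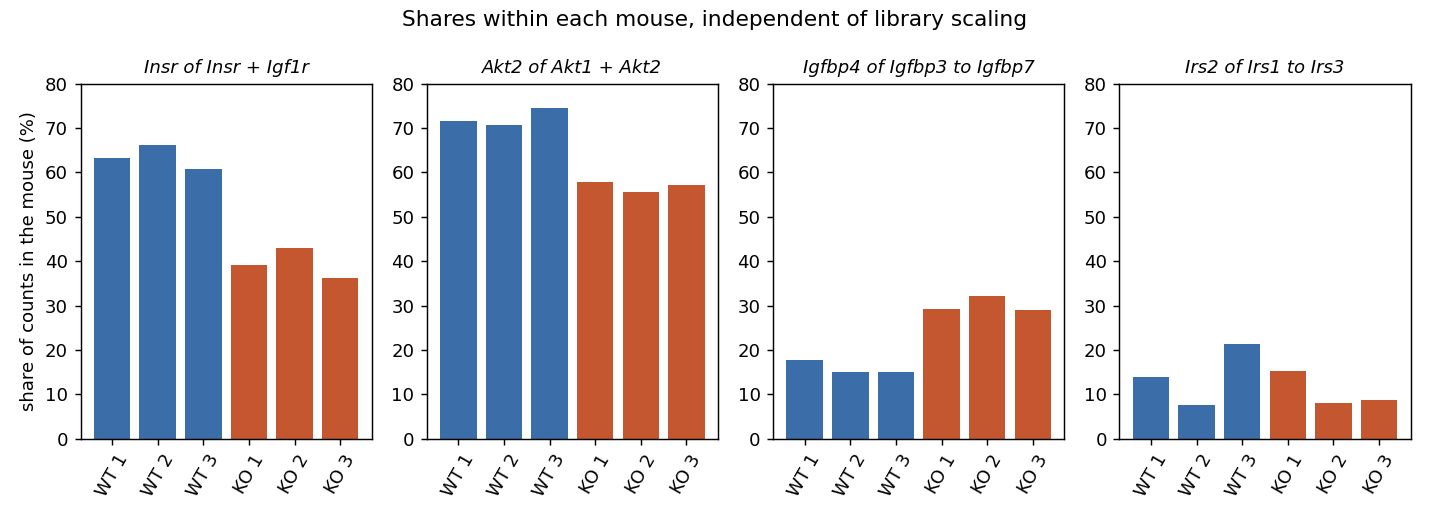
Share of counts within each mouse (%, bars from 0) for Insr among Insr and Igf1r, Akt2 among Akt1 and Akt2, Igfbp4 among Igfbp3 to Igfbp7 and Irs2 among Irs1 to Irs3, wild type (WT) in blue and Letmd1 KO in orange. The genotypes are separate for the first 3 shares, and for Irs2 they overlap (7.56 to 21.2% in WT, 7.99 to 15.3% in KO).

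Beyond these genes, 84 further genes of the pathway were listed by role, of which 73 were tested, 18 fell and 19 rose, with a median log2 fold change of 0.02. These shares were near those of all rows tested (22.3% lower and 23.7% higher), against which the counts of each role are also to be read. Upstream of the receptors, 4 of 6 tested IGF binding protein genes rose and 0 fell, the others past the threshold being Igfbp6 (1.02, edgeR adjusted p = 0.0246) and Igfbp7 (0.47, adjusted p = 0.0188). Igfbp6 lost its call without wild-type mouse 2, wild-type mouse 3, KO mouse 2 (0.69) or KO mouse 3, and Igfbp7 without wild-type mouse 2. Under quantile normalization 3 of the 6 binding protein genes rose and 1 fell. Of the proteases and stanniocalcins that act on IGFBPs, 3 of 4 tested rose. Pappa, which encodes the protease that cleaves IGFBP4, had 41, 23 and 13 counts in wild-type mice and 243, 160 and 491 in KO mice, a log2 fold change of 3.15 (edgeR adjusted p = 5.11e-05). Thus Igfbp4 and the gene of its protease were both higher in every KO mouse. Stc2, an inhibitor of that protease, had 0, 1 and 0 counts in wild-type mice and 28, 11 and 43 in KO mice (adjusted p = 0.000577), and Htra1, a secreted serine protease, rose with a log2 fold change of 1.16 (adjusted p = 0.000551).

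The other ligand genes were Ins1, Ins2 and Igf2. Ins1 and Ins2 had 0 to 2 counts in every mouse and were not tested. Igf2 was at 13.4 ± 1.17 CPM in wild type and 13.4 ± 2.55 CPM in KO, with a log2 fold change of 0.01 (edgeR adjusted p = 0.971). Igf2r, which clears IGF2, was at 0.23 on the log2 scale (adjusted p = 0.121).

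Among 11 tested adaptors, 6 fell and 4 rose. Besides the IRS genes, those that fell included Sh2b2, an adaptor that binds the insulin receptor (log2 fold change -1.19, edgeR adjusted p = 0.000309). Grb10, which inhibits both receptors, rose (1.22, adjusted p = 0.00391). Of the 11 adaptors, 3 fell and 4 rose by library size alone, and 3 fell and 0 rose with muscle markers as a covariate. Of 9 PI3-kinase subunits 5 rose and 0 fell, with a median of 0.73. Those that rose most were the leukocyte forms Pik3r5 (4.01, adjusted p = 0.000804), Pik3cg (2.04, adjusted p = 0.0166) and Pik3cd (1.97, adjusted p = 7.5e-05), followed by Pik3r3 (0.97, adjusted p = 0.0441), a regulatory subunit. Pik3cg had 3 to 14 counts in wild-type mice and lost its call without KO mouse 2 (1.72). Pik3r3 lost its call without wild-type mouse 1 (0.77), wild-type mouse 2 (0.89), KO mouse 1 (0.62) or KO mouse 3 (1.07). Of the 9 subunits, 2 rose and 0 fell under quantile normalization (median 0.32), and 4 rose and 1 fell with DESeq2. The leukocyte forms Pik3r5, Pik3cg and Pik3cd rose in the same mice as the macrophage markers, of which 12 of 12 rose. The part of those cells was not tested. Pik3ca and Pik3cb, the catalytic forms that serve the insulin receptor in most cells, had log2 fold changes of -0.12 (adjusted p = 0.404) and -0.10 (adjusted p = 0.813).

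Downstream, 8 of 13 tested effectors of Akt and mTORC1 fell and 1 rose, with a median of -0.58. This depended on the setting: by library size alone 3 fell and 3 rose (median -0.16), and with muscle markers as a covariate 4 fell and 0 rose. Foxo1 fell from 402 ± 181 to 125 ± 10.6 CPM (log2 fold change -1.69, edgeR adjusted p = 0.0018). Eif4ebp1, a brake on translation that mTORC1 releases (-1.14, adjusted p = 0.000324), and Tbc1d4, the Akt substrate that holds back GLUT4 vesicles (-1.07, adjusted p = 0.0109), also fell, as did Foxo4 (-0.96, adjusted p = 0.000994). Tbc1d4 was at -0.62 without wild-type mouse 3 and kept its call. Among 8 Akt kinases and activators, Akt2 and Mtor fell and 0 rose. By library size alone 2 of the 8 fell and 4 rose. Mtor, the kinase of both mTOR complexes, went from 129 ± 7.99 to 40.8 ± 1.95 CPM (-1.66, adjusted p = 7.71e-06).

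Of 11 tested phosphatases and inhibitors, 2 fell and 2 rose. By library size alone 0 of the 11 fell and 7 rose. Trib3, a pseudokinase that binds Akt and is induced in the integrated stress response, had 88, 49 and 63 counts in wild-type mice and 3446, 2518 and 7398 in KO mice, a log2 fold change of 5.65 (edgeR adjusted p = 9.01e-07). Inpp5d, a lipid phosphatase of blood cells, also rose (1.63, adjusted p = 0.00142). Inppl1, a further lipid phosphatase, fell by 0.49 on the log2 scale (adjusted p = 0.00934). With muscle markers as a covariate, Igfbp6, Igfbp7, Irs3, Grb10, Pik3r3, Tbc1d4 and Inppl1 did not pass (adjusted p = 0.057 to 0.265). Under quantile normalization Igfbp6, Pik3cg, Pik3r3 and Inppl1 did not (adjusted p = 0.0669 to 0.21), and by library size alone neither did Tbc1d4 (adjusted p = 0.0627) or Inppl1 (adjusted p = 0.653).

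**Figure D5:**
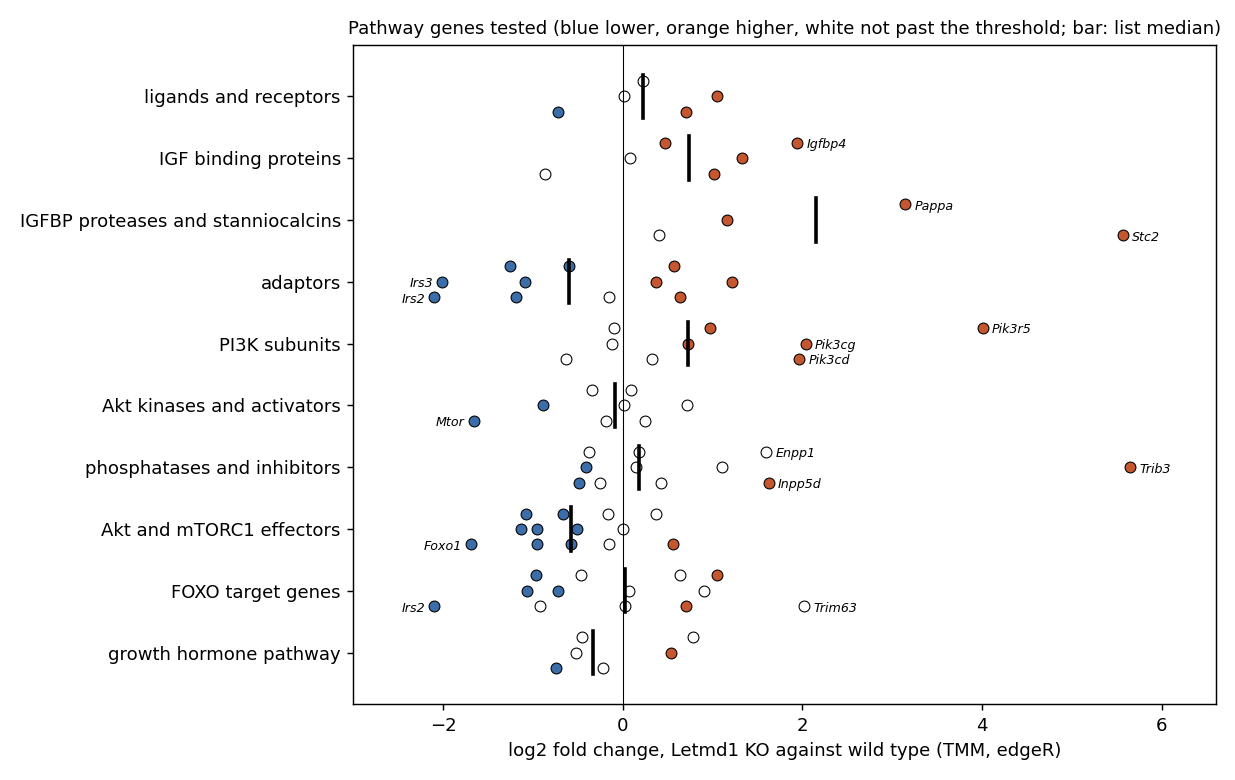
Log2 fold change (horizontal axis, Letmd1 KO against wild type, TMM and edgeR) of each tested pathway gene by role, blue lower, orange higher and white not past the threshold, with a bar at the list median. Binding proteins, the list of proteases and stanniocalcins, and PI3-kinase subunits have medians of 0.74, 2.15 and 0.73, effectors of Akt and mTORC1 one of -0.58. The point of Stc2 depends on the small count added, since its wild-type mice had 0 or 1 counts.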

How the data were processed

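BAT RNA of 3 wild-type and 3 Letmd1 KO mice was sequenced with QuantSeq 3′ mRNA libraries (single-end reads of 75 bases). Bowtie2 served for alignment and Bedtools for counting, with reads of several alignments included, and the authors deposited the counts of each mouse as whole numbers that were not normalized. Quantile normalization, named in the paper's methods, is not in the deposited counts and was run as an alternative. The submitters' processing notes name mm10. The gene annotation and the use of strand are not given in the sources used here.

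The analysis ran in R 4.3.3. The main tool was edgeR 4.0.16 (quasi-likelihood test, TMM, default filter with minima of 10 per library and 15 in total, Benjamini-Hochberg adjustment over 12995 rows, threshold 0.05, prior count 2), and limma 3.58.1 and DESeq2 1.42.0 served the alternatives. SEs were the log2 fold change divided by the square root of F. Ratios used 0.5 added counts and two-sided exact permutation tests. The edgeR, DESeq2 and limma steps were tested on simulated data, where edgeR recovered 66 of 100 genes changed by 1 on the log2 scale. At a change of 2 it recovered 97 of 100, and it called 15 of 12481 unchanged genes. Far fewer genes changed there than were called here, so the simulation cannot judge the scaling of libraries. Chi-square per degree of freedom between mice of a genotype was 10.0 to 29.1, above sampling noise, so each mouse counted as 1 replicate. The labels do not give litters, and p-values measure the spread between these mice.

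The 10 genes and all lists were chosen with earlier results of these data known. Other genes named are the partners in the ratios, up to 4 called genes with the largest change per list and, for each of the 10 genes, the row of most similar pattern (at least 20 counts on average). Igf2, Igf2r, Ins1, Ins2 and Ghr were named after their values were seen. A few genes that these rules select are not reported here. Alternatives were library size alone, RLE factors, quantile normalization, DESeq2, no filter, a mean of at least 50 counts, a replicate block, muscle markers as a covariate, an adjusted p under 0.01, 5 added counts in ratios and each mouse left out. Leaving out wild-type mouse 2 and KO mouse 3 together was added after seeing the data.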

Additional observations from a re-analysis of the deposited data

How the results depend on the processing

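Of the 10 genes, Igfbp4, Igfbp5 and Akt2 kept call and direction under all 15 alternatives. By library size alone, Insr (-0.31), Irs1 (-0.67) and Irs2 (-1.67) lost their calls, 1 of the 10 genes was lower, the calls over all rows were 1368 lower and 5899 higher, and those over the pathway lists 8 lower and 38 higher. Pik3ca (0.29) and Pik3cb (0.32) changed sign there. With muscle markers as a covariate, Irs1 (-0.42), Irs2 (-0.0939) and Igf1 (1.18) lost their calls, Igfbp3 was at -0.18, Pik3cb at 0.16, 2 of the 10 genes were lower, and the calls were 1733 lower and 1760 higher over all rows and 9 lower and 9 higher over the lists. Under quantile normalization Igfbp3 was at -0.0307, Pck1 at 0.0704 and Pik3ca at 0.0194. Pik3r1 passed with DESeq2 (-0.64). At an adjusted p under 0.01, 2 of the 10 genes were lower and 1985 rows higher. The TMM factors, which library size alone leaves out, were 0.852 to 0.886 in wild-type mice and 1.135 to 1.168 in KO mice. For the other settings the cause was not tested.

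Deviations from the group means correlated little between same-numbered mice (r 0.07, -0.11 and -0.09). The highest r, 0.19, was that of wild-type mouse 2 with KO mouse 3. With 3 mice per genotype and no litters given, these values cannot settle whether mice were paired. With the replicate block, Irs2 was at -1.67 and lost its call, Pik3r1 at -0.60 passed, Pik3r3 (0.94) lost its call, and the rows called were 2713 lower and 2886 higher.

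With 1 mouse left out, log2 fold changes ranged from -1.36 to -0.54 for Irs1, -2.57 to -0.76 for Irs2, -0.0416 to 0.25 for Igfbp3, 0.59 to 0.85 for Igf1r, -0.89 to -0.36 for Pik3r1, -0.01 to 0.20 for Akt1 and -0.45 to 0.11 for Pik3cb. Between 2 and 5 of the 10 genes were lower, and 4 were higher each time. The calls over the lists were 16 to 20 lower and 12 to 18 higher. Akt1 changed sign without wild-type mouse 3 (-0.00897), Pik3cb without wild-type mouse 3 (0.11), KO mouse 1 (0.10) or KO mouse 3 (0.01), and Igfbp3 without wild-type mouse 1 (-0.01), KO mouse 2 (-0.04) or KO mouse 3 (-0.00256). Without wild-type mouse 2 and KO mouse 3 together, chosen after seeing the data, Irs1 (-1.18) and Igf1r (0.51) lost their calls. Depth limits Irs2 most, with 27 to 258 counts per mouse.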

Other observations

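Genes known as targets of the FOXO transcription factors did not move one way. Of 13 tested, 4 fell (Insr, Irs2, Ccng2 and Pck1) and 2 rose (Igf1r and Cited2), with a median log2 fold change of 0.02, beside 0.03 for all rows. These counts are to be read against the 22.3% of all rows tested that fell and the 23.7% that rose. By library size alone, 1 of the 13 was lower and 6 were higher. Ccng2, an atypical cyclin, was at -1.07 (edgeR adjusted p = 0.00326). Pck1, the enzyme that feeds glyceroneogenesis in fat, was at 6812, 5058 and 3005 CPM in wild-type mice and 2287, 2884 and 2432 CPM in KO mice, with a log2 fold change of -0.97 (adjusted p = 0.0154). Its call was lost without wild-type mouse 1 (-0.67) or KO mouse 1 (-0.90), and under quantile normalization Pck1 was at 0.07. Cited2, a transcriptional co-regulator, was at 1.05 (adjusted p = 0.034), and its call was lost without wild-type mouse 1 (0.78), wild-type mouse 2 (0.91), KO mouse 2 (0.76) or KO mouse 3 (1.16).

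Growth hormone drives Igf1 transcription in many tissues through its receptor, JAK2 and STAT5. Of 6 genes of that route, Stat5a fell (-0.75, edgeR adjusted p = 0.00282) and Jak2 rose (0.54, adjusted p = 0.0261), where 22.3% of all rows tested fell and 23.7% rose. The call of Jak2 was lost without wild-type mouse 1 (0.52), wild-type mouse 2 (0.41) or KO mouse 3 (0.47). The receptor gene Ghr was at 205, 242 and 262 CPM in wild-type mice and at 102, 291 and 103 CPM in KO mice. The groups overlapped, and Ghr did not pass (log2 fold change -0.52, edgeR adjusted p = 0.27). KO mouse 2, which had the highest Igf1, was higher in Ghr than the nearer KO mouse by 1.49 on the log2 scale. That is a value of 1 mouse, and a link between its Ghr and its Igf1 was not tested. With muscle markers as a covariate, Pck1, Cited2, Stat5a and Jak2 did not pass (adjusted p = 0.0641 to 0.102), nor did Pck1 and Stat5a by library size alone (adjusted p = 0.0994 and 0.0877) or Jak2 under quantile normalization (adjusted p = 0.0672).

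Endothelial markers were 4 lower and 1 higher of 10 (699 to 800 CPM summed in wild type, 453 to 581 in KO), mural cell markers 2 lower and 2 higher of 7 (315 to 341 and 328 to 346 CPM), and 5 of 6 tested Schwann cell markers were higher (224 to 271 and 295 to 459 CPM). Over all rows tested, 22.3% were lower and 23.7% higher, and the mural cell counts were near these shares.

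By Pearson's r of log2 CPM over the 6 mice among 11913 rows, the row nearest in pattern was Cebpd for Igfbp4 (0.9995), Ip6k3 for Igfbp5 (0.998), Cdk14 for Igf1 (0.998), Lpin3 for Igf1r (0.996) and Vtn for Igfbp3 (0.984). It was Usp15 for Akt2 (0.997), Fbxo11 for Insr (0.995), 2010315B03Rik for Irs1 (0.993), Top3b for Irs2 (0.992) and Gak for Pik3r1 (0.986). Each is the highest of many values over the same 6 mice, which differ by genotype, and is a description only.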
